A study of Ovis aries with 6 samples.

Results

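Unmethylated regions (UMRs) of fetal perirenal fat that appear among the low-methylated regions (LMRs) of lamb perirenal fat numbered 1442, or 6.72% of the 21446 autosomal fetal UMRs. They were chosen by position alone: each shares at least 1 base with a lamb LMR and no base with a lamb UMR. Perirenal adipose tissue of 6 untreated wild-type pure-bred Merino sheep was read by whole-genome bisulfite sequencing, which converts unmethylated C and leaves methylated C, so that reads keeping C at a CpG give its methylation. The 3 fetal animals, labelled brown adipose, were sampled 132 days after conception (term is 150 days), and the 3 lambs, labelled white adipose, at 89 days of age, a number the series text gives as 80. All animals were on a maintenance diet, and the ewes that carried the fetuses were not those that reared the lambs. Descriptions of fetal samples carry the tag TV and those of lamb samples VEH; what the tags mark cannot be told apart from stage. The whole tissue was used, so a change of methylation in a cell type and a change in the mix of cells cannot be told apart.

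In mammalian DNA most CpGs are methylated, and the stretches that are not tend to be regulatory. UMRs are CpG-rich and include most CpG-island promoters, where absence of methylation goes with a promoter that can be used. LMRs are shorter and poorer in CpGs, carry intermediate methylation, and often mark distal elements such as enhancers, where bound transcription factors keep methylation low. Brown adipocytes oxidise fuel to warm the newborn and white adipocytes store lipid; the perirenal depot of sheep passes from the first kind to the second after birth.

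Counted on the deposited positions, the lists are divided by the number of CpGs. Every autosomal UMR of either stage holds at least 30 CpG positions, and every LMR holds 5 to 29. A fetal UMR in the lamb LMR list is therefore one whose lamb stretches each hold fewer than 30 CpGs. The sources used here do not say which tool or level threshold made the lists.

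The 1442 regions lay close to that boundary. They held a median of 34 CpGs (quartiles 31 and 39) in the fetal list, against a median of 75 in the 19881 stable UMRs, those that share a base with a lamb UMR. In 810 of them the fetal count was 30 to 34, and 52 had 60 or more. Of fetal UMRs with 30 or 31 CpGs, 47.7% became lamb LMRs. The share was 30.7% at 32 to 34 CpGs, 18.8% at 35 to 39, 7.98% at 40 to 49, 3.68% at 50 to 59, 0.978% at 60 to 79, and 0.144% at 80 or more. The same passage in the other direction, lamb UMRs that were LMRs in the fetal list, took 1120 regions, or 5.28% of the 21199 lamb UMRs. It followed the number of CpGs in the same way, from 36.6% at 30 or 31 CpGs to 0.144% at 80 or more. Each stage has 1 list, so these shares carry no replicate error.

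**Figure D1:**
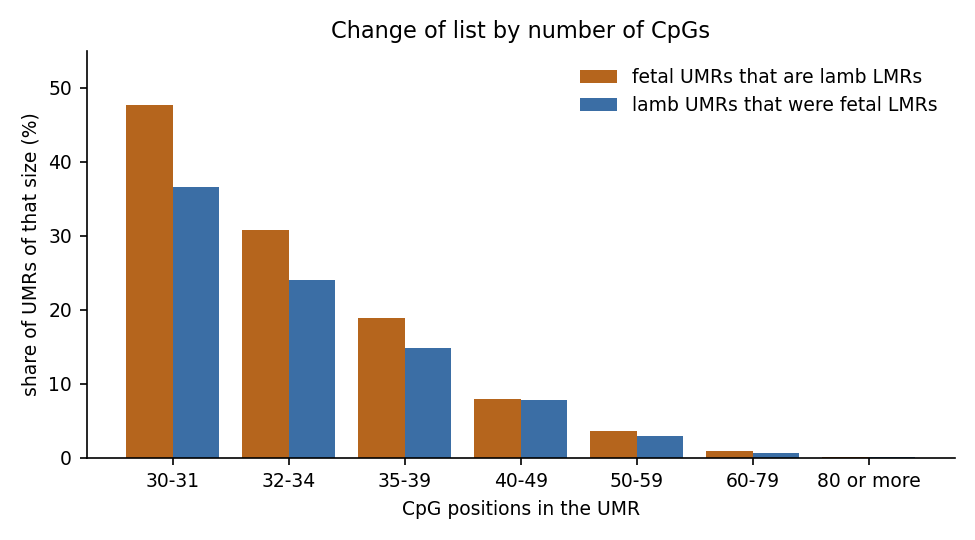
Share of UMRs (vertical axis, percent of UMRs of that size) that are LMRs in the other stage, by the number of CpG positions in the UMR (horizontal axis); brown bars are fetal UMRs that are lamb LMRs, blue bars lamb UMRs that were fetal LMRs. Both shares are highest at 30 to 31 CpGs (47.7% and 36.6%) and are near 0 at 80 or more.

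At the edge of the rule, the smallest overlaps with lamb LMRs were 16 bases (chromosome 3 from 96966710 to 96970119), 29 bases (chromosome 14 from 49104303 to 49104686) and 32 bases (chromosome 2 from 222879077 to 222880865). Just outside it, fetal UMRs that met a lamb LMR and also touched a lamb UMR numbered 545, and the smallest of those contacts were 1, 129 and 193 bases. Positions refer to Oar_v3.1 throughout. No annotation or genome of that build was used here, so genes and sequences are not given.

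In the lambs these regions were trimmed at the ends or split, and none kept all of its CpGs. Where a single lamb LMR was left, some loss is fixed by the list bounds, at least 30 CpGs in a UMR and at most 29 in an LMR. Of their 53640 CpGs, 62.5% were still inside a lamb LMR, 28.1% had been lost from the ends, and 9.37% lay in gaps between lamb LMRs. A single lamb LMR was left in 962 regions, which had a median of 33 CpGs in the fetal list and 24 in the lamb LMR. The other 480 were broken into 2 or more lamb LMRs (448 into 2, 30 into 3 and 2 into 4) and were larger at the start, with a median of 38 CpGs. Their gaps numbered 514 and held a median of 8 CpGs, and in 202 of the 480 the pieces together still had 30 CpGs or more. The loss ranged widely: 265 regions lost at most 5 CpGs, 280 lost over 20, and the median loss was 11. In 333 regions a lamb LMR reached past a fetal edge.

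Despite the name of their list, these regions were of intermediate methylation in the fetus. Usable CpGs are those with 5 or more reads in every animal, and an animal's level is the sum of its methylated reads over the sum of its covering reads at those CpGs. Over 13343 CpGs, fetal animals 1 to 3 were at 30.4%, 31.4% and 29.5%, and lambs 1 to 3 at 36.4%, 37.1% and 35.4%. Each lamb was above each fetal animal. The means were 30.4% ± 0.953 and 36.3% ± 0.833 (SD, n = 3 each), so the lambs were higher by 5.92 percentage points. With a minimum of 10 reads, which left 178 CpGs, the difference was 1.36 points. The UMR and LMR lists were made from the same animals, so this difference follows in part from how the regions were chosen, and it is given without a test.

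Stable UMRs were lower in level and differed less between the stages, though there too each lamb was above each fetal animal. The 6919 with fewer than 60 CpGs, which held a median of 44, had means of 15.2% ± 0.275 in the fetus and 16.0% ± 0.254 in the lambs, a difference of 0.886 points. All stable UMRs were at 9.46% ± 0.141 and 10.1% ± 0.0847 (SD, n = 3 each). The difference in the regions described here minus theirs was 5.30 points, and with a minimum of 10 reads it was -0.473 points, the opposite direction. The reverse class mirrored the regions described here, at 34.6% ± 0.590 in fetal and 30.2% ± 0.239 in lamb animals, a difference of -4.37 points. Its members too were selected on the difference, in the opposite direction. Fetal UMRs in neither lamb list numbered 123; only 232 of their 5949 CpGs were usable, at 40.8% ± 2.47 and 54.5% ± 3.59.

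The difference was larger where the lamb LMRs no longer reached, which the lists themselves dictate. In the lost part, the bases outside every lamb LMR, the level was 41.8%, 43.0% and 41.5% in the fetal animals and 54.8%, 56.3% and 53.4% in the lambs. The means differed by 12.8 points (42.1% ± 0.790 and 54.9% ± 1.44; SD, n = 3 each). In the kept part the level was 25.3%, 26.1% and 24.2% in the fetal animals and 28.3%, 28.5% and 27.4% in the lambs, a difference of 2.86 points. The lost part was thus already the more methylated of the 2 in the fetus. Gaps between lamb LMRs, which belong to the lost part, were at 43.9% ± 0.515 and 56.2% ± 1.88. The lost part was also read less deeply: 20.9% of its CpGs were usable against 27.2% of the kept part, and 21.0% had fewer than 5 reads summed over the 3 animals of a stage, in the fetus and in the lambs alike, against 6.40% and 6.41%. The part of this depth in the result was not tested.

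**Figure D2:**
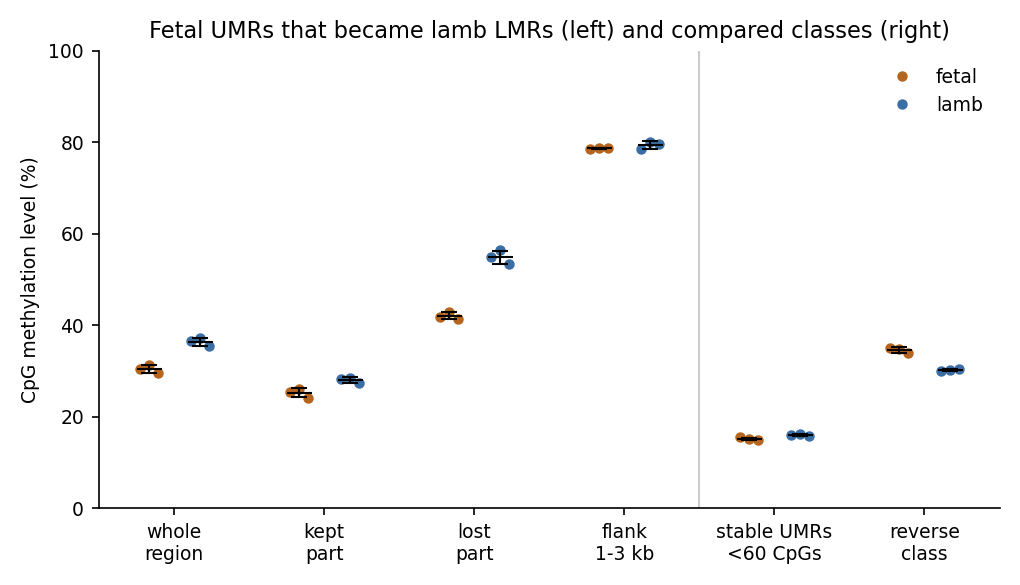
Methylation level (vertical axis, percent) of each animal (points; brown fetal, blue lamb; bars are mean ± SD, n = 3) in fetal UMRs that became lamb LMRs, their kept and lost parts and their flanks (left of the line), and in stable UMRs under 60 CpGs and the reverse class (right). The stages stand farthest apart in the lost part (42.1% and 54.9%) and overlap in the flank.

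Most single CpGs were at intermediate levels in the sum over the animals of a stage. Such a sum cannot tell sites intermediate in each animal from sites that differ between animals. With the reads of a stage summed (median 27 reads in the fetus and 25 in the lambs), 17.6% of the CpGs were under 10% methylated in the fetus and 1.12% were at 80% or more, and 66.9% lay between 10% and 50%. In the lambs 13.1% were under 10% and 2.20% at 80% or more. CpGs at 50% or more made up 15.5% in the fetus and 30.1% in the lambs. In the lost part they went from 28.6% to 66.6%, and in stable UMRs under 60 CpGs from 6.02% to 7.40%. Counted per animal, where fewer reads widen the spread, the share at 50% or more was 22.6%, 24.7% and 21.5% in the fetal animals and 33.6%, 35.8% and 33.1% in the lambs.

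The profile across the fetal edge showed a shallow dip. Within 100 bases inside the edge the fetal mean was 36.2% ± 0.792 and the lamb mean 43.8% ± 0.568, a difference of 7.52 points. At 250 to 500 bases inside it was 26.96% ± 0.781 and 32.3% ± 0.766, a difference of 5.38 points, so the lambs were higher there too and not at the rim alone. The bins hold kept and lost CpGs together, and the differences follow in part from how the regions were chosen. Stable UMRs under 60 CpGs were at 28.7% and 11.2% in the same 2 bins in the fetus. In the 100 bases outside the edge the regions described here were at 63.2% ± 0.362 and 64.8% ± 1.44 (SD, n = 3 each).

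**Figure D3:**
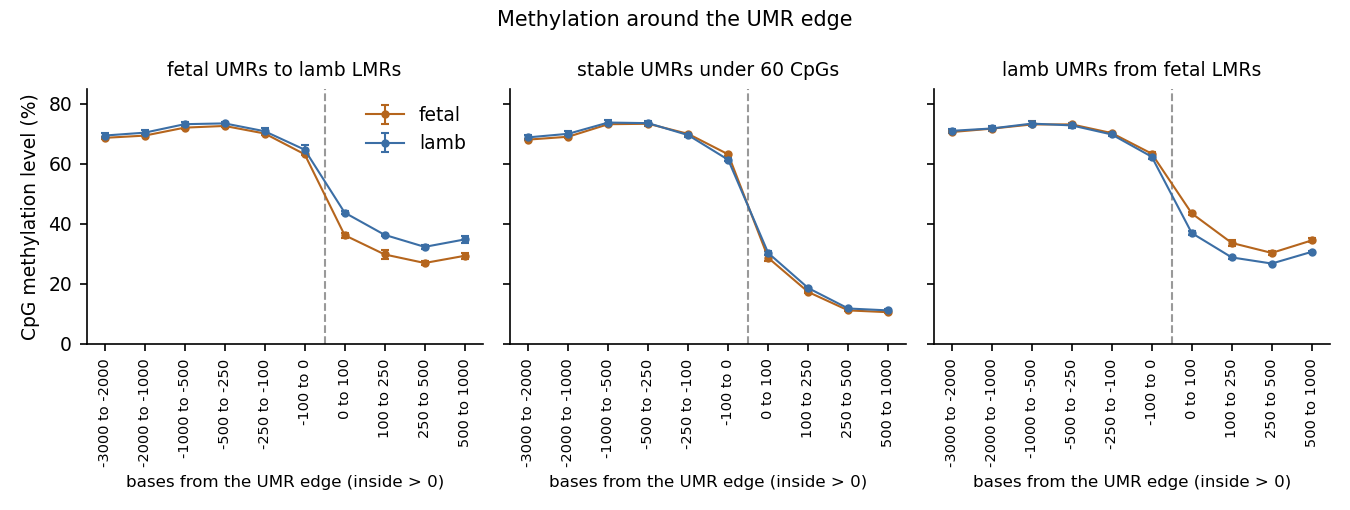
Methylation level (vertical axis, percent; mean ± SD, n = 3 animals per stage) by distance from the UMR edge (horizontal axis, bases, negative outside, bins of unequal width) for fetal UMRs that became lamb LMRs, stable UMRs under 60 CpGs and the reverse class; CpGs outside include those of other listed regions. The first and the last class dip to about the same depth with the stages in opposite order (26.96% and 32.3%, 30.3% and 26.8% at 250 to 500 bases), while stable UMRs reach 11.2% and 11.8%.

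Flanks, which the choice of regions did not use, gave a small difference. Over 24459 CpGs lying 1 to 3 kb outside a region and in no UMR, LMR or DNA methylation valley (DMV, a long unmethylated stretch) of either stage, the level was 78.5%, 78.7% and 78.7% in the fetal animals and 78.5%, 80.1% and 79.6% in the lambs. The stages overlapped, at lamb 1. The means of 78.7% ± 0.144 and 79.4% ± 0.779 (SD, n = 3 each) differed by 0.735 points (exact permutation test, two-sided, p = 0.3; 0.48 after Benjamini-Hochberg adjustment over 6 flank tests). Leaving out lamb 1 gave 1.16 points (exact permutation p = 0.1, the smallest that 3 animals against 2 allow), and without lamb 2 it was 0.396 points. With a minimum of 10 reads, over 180 CpGs, it was 3.15 points (exact permutation p = 0.1), and counting every covered CpG it was 0.388 points (exact permutation p = 0.5, minimum of 1 read). Relative to the flanks of stable UMRs in the same animal, those flanks were lower by a mean of -0.989 points ± 0.214 in the fetus and -0.726 points ± 0.0941 in the lambs. The gap was smaller in the lambs by 0.263 points (exact permutation p = 0.1, the smallest that 3 against 3 allow; adjusted 0.3). Over the alternatives it ranged from 0.0245 points with a minimum of 1 read (exact permutation p = 1) and 0.0464 with 3 reads (exact permutation p = 0.8) to 1.57 points with 10 reads (exact permutation p = 0.3). It was 0.590 points in the flank of 0 to 1 kb (exact permutation p = 0.2), and 0.141 to 0.342 points when an animal was left out, lowest without fetal animal 1 and highest without fetal animal 2. In the nearer flank of 0 to 1 kb the lambs were each above the fetal animals, by 0.990 points on average (exact permutation p = 0.1). Flanks at 1 to 3 kb differed by 0.472 points around all stable UMRs (exact permutation p = 0.4). Around stable UMRs under 60 CpGs the difference was 0.566 points (exact permutation p = 0.4). Around the reverse class it was 0.231 points (exact permutation p = 0.7). Over all autosomal CpGs, at a minimum of 1 read, the fetal animals were at 70.4%, 70.3% and 70.2%. The lambs were at 69.9%, 72.1% and 71.1%, so lamb 1 was again the lowest lamb.

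No single region among the 1442 passed the test between the stages at this read minimum. The test was a quasi-binomial model of methylated and unmethylated reads, fitted on all 68991 autosomal fetal UMRs and LMRs with at least 3 usable CpGs, its dispersion moderated as in limma, with Benjamini-Hochberg adjustment over all of them. A call needed an adjusted p under 0.05 and at least 10 points. Of the 1442 regions 1203 could be tested, over a median of 10 CpGs and 85 reads per animal, and 0 were called. Among all regions tested, 0.00145% were called higher in lambs (1 region) and none lower (0%). The smallest adjusted p among the 1203 was 0.150. Unadjusted p values under 0.05 were found for 249 regions higher and 6 lower in lambs, where 8.51% and 1.56% of the whole table had them, 6.71% and 2.34% of all fetal UMRs, and 6.33% and 2.27% of stable UMRs under 60 CpGs. On the same regions limma on log2 ratios called 0 of the 1203, with 117 at an unadjusted p under 0.05, and edgeR's quasi-likelihood test called 0, with 181. These counts of 117 and 181 pool both directions. The shares over the whole table were not counted for these tools, so the counts have no background beside them.

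Differences were nonetheless mostly in 1 direction. The lamb mean was higher in 993 of the 1203 regions (82.5%) and lower in 210, where it was higher in 65.1% of all regions tested and 58.4% of stable UMRs under 60 CpGs. The differences had a median of 5.67 points (quartiles 1.46 and 10.1). Over all 68991 regions the median was 1.93 points, and over stable UMRs under 60 CpGs 0.708 points. In 273 regions all lambs lay above all fetal animals and in 12 all lambs lay below, or 22.7% and 0.998% of those tested. Over the whole table the shares were 11.7% and 3.03%, over all fetal UMRs 9.17% and 4.15%, and over stable UMRs under 60 CpGs 7.97% and 3.98%. Regions whose means differed by 10 points or more numbered 305 upward and 14 downward, against 11827 and 2187 of the 68991 and 360 and 119 of the 6037 stable UMRs under 60 CpGs that were tested. Animals of the same stage had a median SD of 5.44 points in the fetus and 6.10 in the lambs, so a typical difference was about as large as this SD. It holds read-counting error, at a median of 85 reads per animal, as well as any spread between animals, and these were not separated. As the lists select for such a difference, these counts describe the regions and support nothing beyond that.

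**Figure D4:**
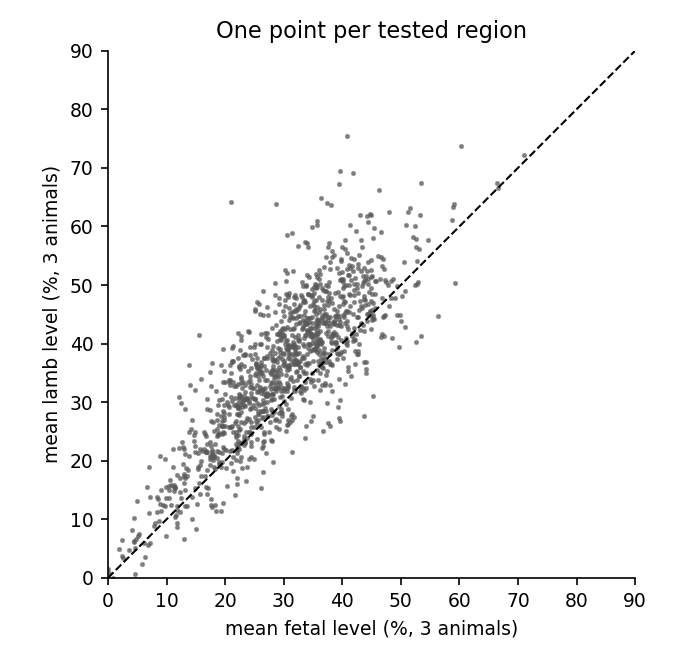
Mean lamb level against mean fetal level (both in percent, 3 animals each) for the 1203 tested fetal UMRs that became lamb LMRs, 1 point per region; the dashed line marks equal levels. Most points (993) lie above the line, and the bulk sits between 20% and 50% on the fetal axis.

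Fetal levels varied widely between the regions. Of the 1203, 43 were under 10% in the fetus, 160 at 10 to 20%, 362 at 20 to 30%, 436 at 30 to 40%, 172 at 40 to 50% and 30 at 50% or more. In the lambs 29 were under 10% and 142 at 50% or more. Fetal levels under 10% were thus found in 3.57% of the regions tested, against 36.5% of stable UMRs under 60 CpGs. Those stable UMRs held more CpGs, a median of 44 against 34, and the part of this in the contrast was not tested.

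With more CpGs admitted, a few regions did pass. A minimum of 3 reads per CpG let 1412 of the 1442 be tested and called 5 of them, each higher in lambs, where 0.0105% of 114286 regions were called higher and 0.00262% lower. A minimum of 1 read tested 1441 and called 7, where 0.0147% of 129348 were called higher and 0.00309% lower; the 5 are among the 7. They are named here after their values were seen, with their levels at a minimum of 1 read. Their adjusted p values are those of the model above, with limma's moderation. The adjustment ran over regions of the fetal lists alone. The lists that chose the regions were made from the same animals, so these calls describe the regions and support nothing beyond that.

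The region on chromosome 20 from 50040136 to 50041184, with 62 CpGs, was at 31.5%, 34.6% and 30.7% in the fetal animals and at 61.2%, 50.3% and 62.1% in the lambs (adjusted p = 0.0131). It overlaps a hyper DMR (differentially methylated region) of the authors' deposited list, and 54 of its CpGs were lost at the ends, leaving a lamb LMR of 8. On chromosome 7 from 9424215 to 9426040 the fetal animals were at 21.7%, 24.4% and 22.2% and the lambs at 39.7%, 41.8% and 38.5% (adjusted p = 0.0172). This region of 54 CpGs was split into 3 lamb LMRs, and the animals of each stage lay close together. On chromosome 1 from 271459822 to 271460580 the levels were 32.8%, 32.1% and 37.4% in the fetal animals and 60.9%, 62.3% and 53.4% in the lambs (adjusted p = 0.0182). Of its 34 CpGs 28 were lost at the ends.

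On chromosome 3 from 2171245 to 2172358 the fetal mean was 24.2% ± 1.12 and the lamb mean 41.2% ± 3.48 (SD, n = 3 each; adjusted p = 0.0271, limma's moderation). Farther along the same chromosome, from 13621044 to 13622466, they were 24.2% ± 2.24 and 47.3% ± 6.34 (SD, n = 3 each; adjusted p = 0.0287, limma's moderation), in a region that also overlaps a hyper DMR. The 2 regions called with a minimum of 1 read alone were on chromosome 8 from 88756590 to 88757312, at 33.0% ± 4.98 and 58.8% ± 3.86 (adjusted p = 0.0271, limma's moderation), and on chromosome 21 from 43036302 to 43037110, at 25.8% ± 1.35 and 43.5% ± 3.19 (adjusted p = 0.0278, limma's moderation; SD, n = 3 each). The first of these overlaps a hyper DMR and kept 5 of 35 CpGs, while the second has 65 CpGs within 809 bases and was split into 3. In each of the 7 the lowest lamb was above the highest fetal animal, which largely follows from choosing called regions. The share of such separation over all regions at a minimum of 1 read was not counted.

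At the minimum of 5 reads, the 8 largest positive differences without overlap between the stages, among regions with at least 5 usable CpGs and 30 reads in each animal, ran from 25.0 to 29.9 points. The largest was on chromosome 23 from 54887760 to 54889458, at 34.2%, 29.7% and 54.8% in the fetal animals and 56.4%, 70.3% and 81.8% in the lambs, over 5 CpGs (adjusted p = 0.374, limma's moderation). Fetal animal 3 stood well above the other fetal animals there and just below lamb 1. On chromosome 20 from 29180473 to 29182556 the fetal animals were at 32.5%, 47.6% and 29.1% and the lambs at 59.1%, 62.5% and 73.3%; 5 of 35 CpGs were kept. The region on chromosome 20 from 50040136 described above came next, at 28.0 points. On chromosome 23 from 58269203 to 58270229, which overlaps a hyper DMR, the means were 37.4% ± 11.5 and 64.0% ± 8.57 (SD, n = 3 each).

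The lowest fetal level among these 8 was on chromosome 1 from 272196243 to 272197309, at 15.5% ± 6.36 (SD, n = 3), with the lambs at 33.1%, 32.8% and 58.3%. Lamb 3 stood far above the other lambs there, and the region lost only 4 of 33 CpGs. The others were on chromosome 22 from 47125583 to 47126370 (38.1% ± 15.7 and 63.7% ± 7.33), on chromosome 3 from 210615822 to 210617213 (35.6% ± 9.57 and 60.9% ± 6.07), and on chromosome 3 from 96966710 to 96970119 (34.9% ± 13.1 and 59.9% ± 5.55; SD, n = 3 each). The last of these kept 2 of its 42 CpGs in the lamb LMR it touches. The adjusted p values of the 8 ran from 0.257 to 0.374 (quasi-binomial test with limma's moderation), so none passed.

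Of the 1020 regions with that many usable CpGs and reads, 251 had all lambs above all fetal animals and 10 had all lambs below. Over all regions tested the shares were 11.7% and 3.03%. Those regions needed only 3 usable CpGs and had a median of 48 reads per animal, so the filters are unlike. Among the 10, the 4 largest negative differences ran from -14.2 to -11.6 points. On chromosome 5 from 7651225 to 7652727 the fetal animals were at 53.8%, 39.5% and 42.2% and the lambs at 31.4%, 25.6% and 36.0% (adjusted p = 0.355, limma's moderation). The lamb LMR there kept 26 of 30 CpGs, so this region moved to the other list by 4 CpGs while its level was the lower in lambs. On chromosome 23 from 20614075 to 20615125 the means were 39.6% ± 5.59 and 26.9% ± 3.62, with 7 of 32 CpGs in a gap. On chromosome 4 from 5156509 to 5157354 they were 37.9% ± 5.57 and 25.9% ± 3.63, and on chromosome 10 from 50853 to 58072, a region of 7220 bases, 36.7% ± 4.27 and 25.1% ± 8.62 (SD, n = 3 each).

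**Figure D5:**
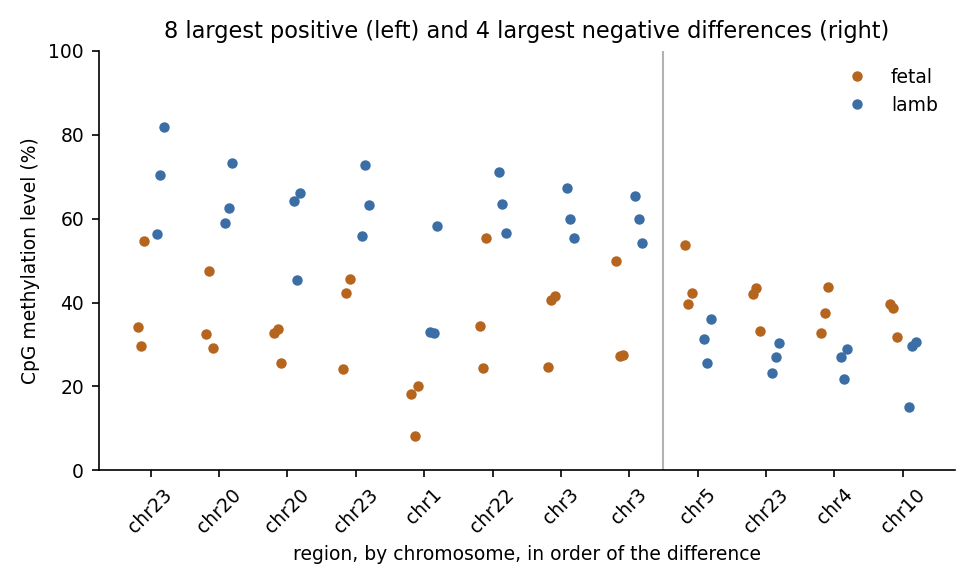
Methylation level (vertical axis, percent) of each animal (points; brown fetal, blue lamb) in the 8 regions with the largest positive and the 4 with the largest negative differences between stages, in order of the difference and marked by chromosome. The regions were picked for not overlapping between stages; single animals (fetal animal 3 on the first, lamb 3 on chromosome 1) stand apart in several.

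Some regions changed list with hardly any difference in level. The 4 smallest differences among regions with at least 10 usable CpGs were within 0.2 points. On chromosome 16 from 62340030 to 62342240 the fetal mean was 31.93% ± 2.56 and the lamb mean 31.98% ± 4.33, and 7 of its 31 CpGs fell into a gap between 2 lamb LMRs. On chromosome 3 from 2726404 to 2727650 the means were 27.9% ± 3.29 and 27.8% ± 3.02, on chromosome 19 from 7570476 to 7571370 they were 32.7% ± 6.04 and 32.6% ± 7.86, and on chromosome 17 from 9218 to 11026 they were 36.3% ± 9.30 and 36.2% ± 6.49 (SD, n = 3 each). Loss of few CpGs went with a smaller difference, which the lists in part dictate, as they set which CpGs were lost. The 265 regions that lost at most 5 were at 23.4% ± 0.760 in the fetus and 26.7% ± 0.385 in the lambs. The 280 that lost over 20 were at 37.4% ± 0.497 and 46.0% ± 2.12 (SD, n = 3 each).

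The regions with the most CpGs and the greatest width were not all well covered. The fetal UMR on chromosome 5 from 49669218 to 49674001 held 176 CpGs, of which 28 remained in a lamb LMR, and 14 were usable, at 43.8% ± 6.31 in fetal and 46.6% ± 2.19 in lamb animals. Nearby, from 49590468 to 49600184, a region of 159 CpGs kept 25 and had 5 usable, at 45.7% ± 3.09 and 46.1% ± 6.18. On chromosome 1 from 268833926 to 268843378 a region of 156 CpGs was broken into 4 lamb LMRs with 85 CpGs in the gaps, and its 53 usable CpGs were at 31.2%, 40.6% and 44.4% in the fetal animals and 45.6%, 53.9% and 46.6% in the lambs. The 3 widest regions, on chromosome 20 from 1241844 (23677 bases), chromosome 10 from 7943659 (21058 bases) and chromosome 7 from 22553136 (19812 bases), held 42, 58 and 71 CpGs. Those on chromosomes 20 and 7 had 4 and 9 usable CpGs, and that on chromosome 10 had too few to test.

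The authors' deposited DMR lists touched few of these regions. A hyper DMR shared a base with 22 of the 1442, or 1.53%, against 0.923% of all fetal UMRs and 0.347% of stable UMRs under 60 CpGs. A hypo DMR touched 1, or 0.0693%, against 0.429% of all fetal UMRs and 0.202% of stable UMRs under 60 CpGs. It lies on chromosome 20 from 11045900 to 11047236, with a fetal mean of 29.8% ± 5.52 and a lamb mean of 27.7% ± 3.01 (SD, n = 3 each). In the reverse class the counts were 0 hyper and 23 hypo. The list names do not state the reference stage. In the 17 of the 22 that could be tested the lamb mean was the higher in each. In 13 of the 17 all lambs lay above all fetal animals, where the share over all regions tested was 11.7%. The DMR lists rest on the same animals, so this direction and separation follow in part from them. Of the 8 DMR-bearing regions with the most usable CpGs, that on chromosome 17 from 52027738 to 52031160 had the most, 34 of 87, at 38.4%, 32.4% and 36.4% in the fetal animals and 52.1%, 49.5% and 52.4% in the lambs (adjusted p = 0.245, quasi-binomial test with limma's moderation). It was split into 3 lamb LMRs with 33 CpGs in the gaps. On chromosome 11, 2 regions lost 4 and 6 CpGs and differed by 14.02 and 17.7 points, from 54901988 to 54903532 at 20.9% ± 1.90 and 34.9% ± 5.78, and from 47961450 to 47962803 at 17.4% ± 6.75 and 35.1% ± 4.15. Others differed by less than 10 points over the whole region, such as that on chromosome 13 from 79174956 to 79176762 at 12.3% ± 5.39 and 17.1% ± 1.24, on chromosome 24 from 40407599 to 40408910 at 36.5% ± 6.13 and 44.8% ± 2.33, on chromosome 2 from 103393172 to 103396056 at 40.2% ± 2.95 and 49.9% ± 6.71, and on chromosome 17 from 70951215 to 70953069 at 31.9% ± 7.31 and 38.4% ± 7.30 (SD, n = 3 each). All these lists rest on 1 set of animals, so these overlaps are not independent. No region overlapped a DMV of either stage, against 2.56% of stable UMRs and 0.0145% of those under 60 CpGs.

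Features that the rule does not name are given without a test, as each stage has 1 list. CpG density is not free of the choice of regions, as it contains the CpG number that divides the lists. CpG density had a median of 2.66 per 100 bases (quartiles 1.67 and 3.80), against 3.47 in stable UMRs under 60 CpGs, 4.07 in all stable UMRs and 2.93 in the reverse class. Length had a median of 1350 bases (quartiles 922 and 2190), against 1275 and 1244 bases in stable UMRs under 60 CpGs and the reverse class. The nearest other UMR lay a median of 13327 bases away, against 13009 and 15499 bases in the same classes, and 13.1%, 12.2% and 11.96% had one within 2000 bases. Split into 4 groups by density, the regions differed between stages by 3.997 points in the sparsest group (33.4% ± 0.918 and 37.4% ± 1.56; SD, n = 3 each), 6.20 and 6.34 points in the next groups, and 7.31 points in the densest. The sparsest group, with a median length of 3950 bases, was split into 2 or more lamb LMRs in 41.3% of cases and the densest in 30.7%. These are descriptions over regions, which are not replicates.

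These regions often lay near chromosome ends. Within 5 Mb of the first or last listed CpG of a chromosome lay 510 of the regions, or 35.4%, against 18.2% of stable UMRs, 22.7% of stable UMRs under 60 CpGs and 37.2% of the reverse class. Of the 510, 338 were at the high-numbered end and 172 at the low-numbered end. Other fetal UMRs were not counted by end, so whether this split is particular to these regions was not tested. Among fetal UMRs with fewer than 40 CpGs, 37.7% of those in the outermost 1 Mb became lamb LMRs, 37.1% at 1 to 5 Mb, 28.1% at 5 to 20 Mb and 25.5% farther in. Inside the outer 5 Mb the regions were at 31.6% ± 1.28 and 38.1% ± 0.517, and elsewhere at 29.9% ± 0.831 and 35.5% ± 1.03 (SD, n = 3 each). Each lamb was above each fetal animal in both zones, which follows in part from how the regions were chosen. By chromosome the share of fetal UMRs that became lamb LMRs ran from 3.49% on chromosome 7 (28 of 803) to 10.8% on chromosome 21 (70 of 648), with 10.3% on chromosome 22 and 9.49% on chromosome 17. The regions were scattered: neighbours on a chromosome lay a median of 396758 bases apart, and 120 regions fell into 59 groups with gaps of at most 10 kb, the largest of them 3 regions on chromosome 2 from 246671849 to 246684814 and 3 on chromosome 23 from 48572973 to 48578718.

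Coverage was shallow. Reads summed over CpG positions ran from 136938075 in lamb 2 to 209550245 in lamb 1, and mean coverage of an autosomal CpG from 5.22 to 8.00 reads in the same animals. In the 1442 regions a median of 8 CpGs was usable. Reads carry no molecular tags, so read counts bound counting error alone.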

How the data were processed

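Bisulfite reads were mapped to Oar_v3.1, per the series text. BWA, Picard, Oar_v3.1 and hg19 are listed without roles, per the submitters' processing notes; the callers of methylation and of regions are not stated. For 26377052 CpG positions the authors deposited raw counts of methylated and of covering reads, with columns matched to animals by sample description. The deposited region lists hold positions alone and no other measure. Autosomes 1 to 26 were used (24936679 positions). Levels, classes and the quasi-binomial test (dispersion moderated as in limma's squeezeVar and not below 1) were computed from CpGs with at least 5 reads in each animal. A flank test is an exact permutation of the 6 animals. Tools were Python 3.11.15, numpy 2.4.6, scipy 1.17.1, pandas 2.3.3, R 4.3.3, limma 3.58.1 and edgeR 4.0.16.

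The regions, classes and rules were chosen with earlier results of these data known. Named regions were the called ones, the 8 largest positive and 4 largest negative differences without overlap (at least 5 usable CpGs and 30 reads per animal), up to 8 with a DMR, the 3 with most CpGs, the 3 widest and the 4 with the least difference; gene lists and sequence motifs planned for an annotation of Oar_v3.1 were not used.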

Additional observations from a re-analysis of the deposited data

How the results depend on the processing

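Over alternative coverage minimums, left-out animals, equal weight per CpG and removal of CpGs over 3 times the median coverage, the difference of 5.92 points kept its sign, as did that of the lost and kept parts. Leaving out an animal gave 5.45 to 6.40 points in whole regions, 12.05 to 13.5 in the lost part, 2.34 to 3.34 in the kept part, and 4.86 to 5.83 for whole regions over stable UMRs (5.30 with all animals). A minimum of 10 reads left 178 CpGs and gave 1.36, 4.26 and 0.417 points, and -0.473 points over stable UMRs; the cause beyond fewer CpGs was not tested. Among the 1442, 0 were called with 5 reads, 5 with a minimum of 3, 7 with a minimum of 1, and 0 in each other setting. Over the whole table the 1 call became 15 and 23 with minimums of 3 and 1 reads, 0 with 10 reads (522 regions tested), 2 with at least 5 CpGs, 4 with edgeR, 0 with limma, and 0 without any 1 of the animals. With the replicate number as a block it was 0, and 0 among the 1442; nothing in the labels ties same-numbered animals, and their deviations correlated by 0.000184 to 0.0141, which does not pair them. Requiring at least 50% of the fetal UMR inside lamb LMRs left 1077 regions, and at least 50% of a lamb LMR inside the fetal UMR left 1433.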

Other observations

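The X chromosome was left out of the comparisons. By the same rule 66 of its 766 fetal UMRs, or 8.62%, became lamb LMRs, and 43 of its 740 lamb UMRs, or 5.81%, were LMRs in the fetal list.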
